A study of Mus musculus with 4 samples.

Results

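Chylomicrons are the particles in which the enterocytes of the small intestine send dietary fat into the lymph, and 10 genes that build them were examined here: *Apoa1*, *Apoa4*, *Apob*, *Apoc2*, *Apoc3*, *Mttp*, *Dgat1*, *Dgat2*, *Mogat2* and *Sar1b*. They were taken by gene symbol, as every probe set that the array annotation assigns to one of them, which gave 18 probe sets for 10 of the 18194 genes with a symbol. All 18 probe sets passed the filter on low signals, and 12259 genes in all did so. No probe set named a member together with another gene.

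The RNA came from 4 groups of mice: CF + lubiprostone (8 mice), CF control (10 mice), WT + lubiprostone (7 mice) and WT control (10 mice by the series description, 8 by the study's methods). CF mice carried the Cftr tm1UNC null mutation and WT mice were their wild type littermates, all on the C57BL/6J background and all fed the liquid diet Peptamen, and their ages were not given in the sources used here. Lubiprostone, a fatty acid derivative that activates chloride channels and is used against constipation, was given by gavage at 10 µg/kg/day for 2 weeks, and the labels give no treatment for the control mice. Total RNA of the whole small intestine, with the mesentery removed, was combined within each group and put on 1 Affymetrix Mouse 430 2.0 array per group, so each group has 1 value per probe set and the spread between replicates is not known for any difference below. A signal is an intensity in arbitrary units, 1 number for all probes of a probe set, and it can be compared between arrays for 1 probe set but not between probe sets.

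In the enterocyte, absorbed monoglycerides and fatty acids are joined to triglyceride at the endoplasmic reticulum by a monoacylglycerol acyltransferase (*Mogat2*) and the diacylglycerol acyltransferases (*Dgat1*, *Dgat2*). The microsomal transfer protein (*Mttp*) loads this fat onto apolipoprotein B (*Apob*), of which each particle carries a single copy, and the small GTPase SAR1B (*Sar1b*) forms the COPII coat that carries the particle out of the endoplasmic reticulum. *Apoa1*, *Apoa4*, *Apoc2* and *Apoc3* encode exchangeable apolipoproteins of the particle surface, and in people, loss of MTTP or SAR1B leaves the gut unable to export fat.

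The promoters of *Apob*, *Apoa4* and *Apoa1* are shown because these genes lie at different places in the results: *Apob* had one of the lowest ratios of CF to WT among the members, *Apoa4* was moderately lower in CF control only, and *Apoa1* had the narrowest range of signal. The sequences are RefSeq's, on GRCm38.p6, 300 bases long and spanning the gene start, and *Apob* is at chr12:7977427-7977726, *Apoa4* at chr9:46240594-46240893 and *Apoa1* at chr9:46228380-46228679, all on the plus strand. Capitals mark CAAAG on either strand (CTTTG on the minus strand), a short core of sites for the nuclear receptor HNF4, and TATAAA.
Apob: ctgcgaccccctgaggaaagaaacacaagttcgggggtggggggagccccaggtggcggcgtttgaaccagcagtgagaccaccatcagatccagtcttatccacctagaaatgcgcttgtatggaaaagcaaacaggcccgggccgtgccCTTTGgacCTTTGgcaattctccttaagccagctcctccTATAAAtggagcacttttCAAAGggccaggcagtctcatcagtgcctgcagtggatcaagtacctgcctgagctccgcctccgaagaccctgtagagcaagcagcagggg
Apoa4: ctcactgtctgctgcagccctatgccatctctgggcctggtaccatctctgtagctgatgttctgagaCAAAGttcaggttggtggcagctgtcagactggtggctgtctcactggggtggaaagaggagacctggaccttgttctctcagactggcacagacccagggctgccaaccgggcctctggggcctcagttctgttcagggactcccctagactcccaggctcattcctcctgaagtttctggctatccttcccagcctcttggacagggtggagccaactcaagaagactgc
Apoa1: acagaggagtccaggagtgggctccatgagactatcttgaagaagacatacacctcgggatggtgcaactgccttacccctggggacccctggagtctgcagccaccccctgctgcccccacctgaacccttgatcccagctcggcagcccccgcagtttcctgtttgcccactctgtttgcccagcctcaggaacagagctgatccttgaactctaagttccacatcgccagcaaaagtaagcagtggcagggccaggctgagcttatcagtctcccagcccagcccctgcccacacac
In the *Apob* window CAAAG was found 3 times, with its lowest coordinate at -99 and -91 (minus strand) and -42 (plus strand) relative to the gene start, and TATAAA at -60. *Apoa4* had 1 CAAAG, at -182, and *Apoa1* had none. Of the 6 members with a promoter in the table (also *Apoc2*, *Mttp* and *Sar1b*), 5 held CAAAG, as did 53.9% of all 32851 promoters, and 1 held TATAAA, as did 13.6% of all. In the promoters not shown, CAAAG lay at -227 and -24 in *Apoc2*, at -205 and -174 in *Sar1b* and at -238 in *Mttp*. CAAAG was searched on both strands and was added after the sequences had been seen. Whether these matches go with the ratios of the members was not tested. A longer HNF4 motif, CAAAGTCCA, was in none of the 6 and in 0.475% of all promoters, and AGGTCA, the nuclear receptor half-site, was in *Apoc2* alone, against 16.3% of all. Searched likewise on both strands, GTTAAT (the HNF1 half-site, *Apoc2*), GGGCGG (the GC box, *Mttp*) and TGACG (the CRE half-site, *Apoc2* and *Mttp*) were in 7.10%, 35.7% and 20.8% of all promoters. These are matches of letters only, not sites shown to be bound.

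The arrays had been scaled by the authors, and their trimmed mean signal was 499.8 on each. The array medians lay between 109 and 124, lowest in CF control. *Cftr* itself (1420579_s_at) had signals of 715 in CF + lubiprostone and 620.2 in CF control, against 2226 in WT + lubiprostone and 2505 in WT control, which fits the labels. *Xist* (1427262_at), expressed in females, had 4062, 2509.85, 3683 and 1036 in the same order of pools, so WT control was lowest in it, as it was in its other probe sets. *Eif2s3y* (1417210_at), a gene of the Y chromosome, had 805, 884, 829 and 1242, so WT control was highest in it. Its other probe set (1431642_at) was dim, at most 50.6. The make-up of the pools by sex may thus differ, and the part of sex in the results was not tested. Hepatocyte markers, from another organ that makes apolipoproteins, were dim, with 6 or 7 of 8 below the array median on each array.

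**Figure D1:**
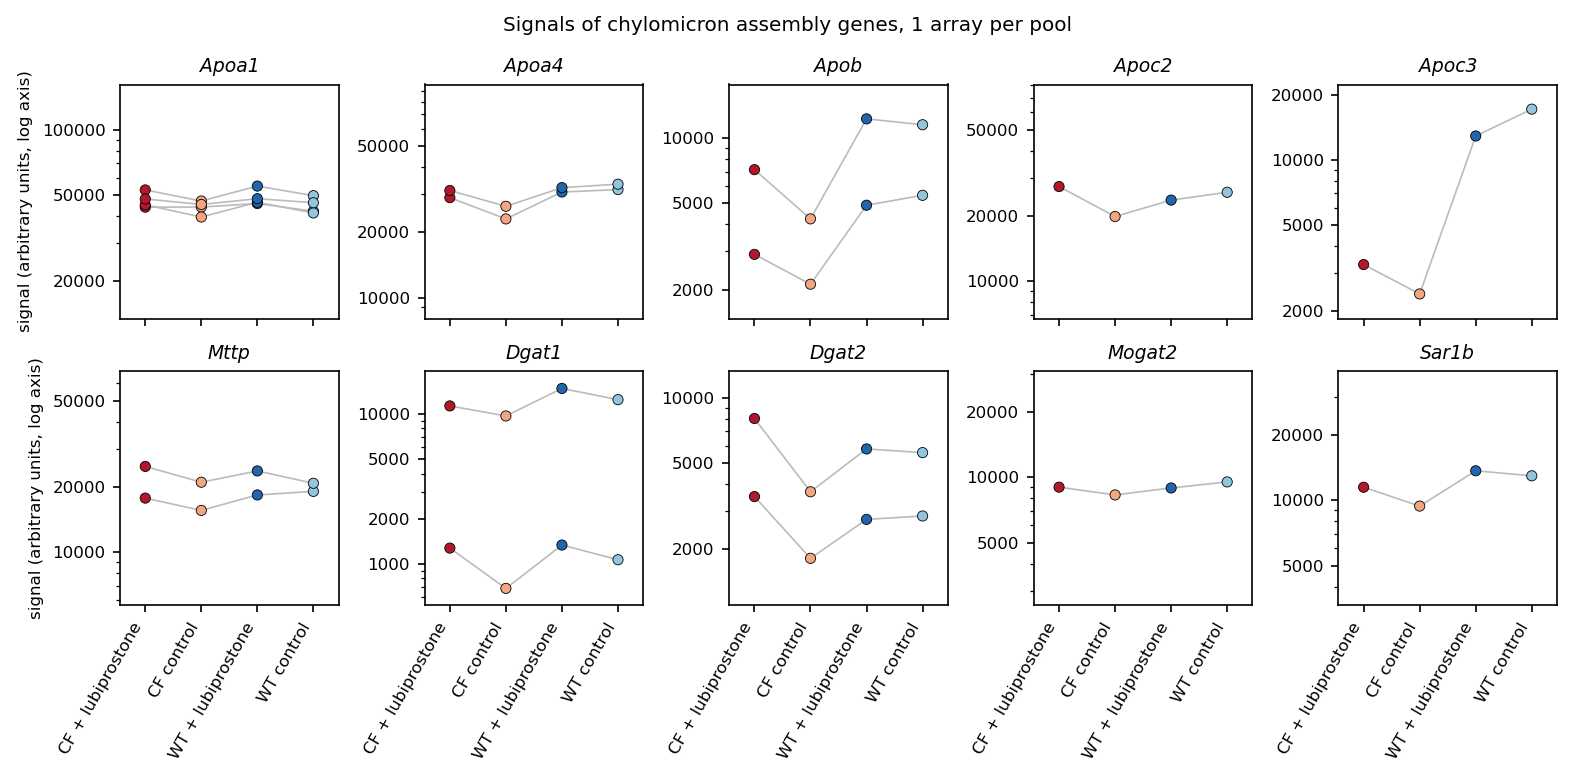
Signal of each probe set (arbitrary units, log axis) of the 10 chylomicron assembly genes in the 4 pools, 1 array each, with lines joining the values of 1 probe set. The CF control point is low in most panels, and *Apoc3* and *Apob* lie lower in both CF pools than in both WT pools.

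CF control was the lowest of the 4 pools for each of the 10 members by the mean of their probe sets, with 29.9% of all 12259 genes lowest in that pool. After scaling the arrays to the same median this held for 7 members, with *Apoa1*, *Mogat2* and *Mttp* as the exceptions, and with the brightest probe set alone it held for 9, *Mttp* excepted. The range over the 4 pools differed widely among members: 7.15-fold for *Apoc3*, 2.64-fold for *Apob* and 2.05-fold for *Dgat2*, between 1.31-fold and 1.72-fold for *Dgat1*, *Sar1b*, *Apoc2* and *Apoa4*, and at most 1.16-fold for *Mttp*, *Mogat2* and *Apoa1*.

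The surface apolipoproteins were first compared. *Apoc3*, whose protein slows the breakdown of triglyceride-rich particles by lipoprotein lipase, had a signal of 3285 in CF + lubiprostone and 2402 in CF control, against 12912 in WT + lubiprostone and 17186.5 in WT control (1418278_at). Both CF pools were thus far below both WT pools. It was 7.15-fold lower in CF control relative to WT control (log2 ratio -2.84), and 3.93-fold lower in CF + lubiprostone relative to WT + lubiprostone (log2 ratio -1.97), a pair of comparisons that share no array. With lubiprostone its signal was 1.37-fold higher in CF and 1.33-fold lower in WT. A single probe set measures *Apoc3*, so its ratio has no second reading within the array.

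*Apoc2*, the cofactor that activates lipoprotein lipase, did not have this shape. Its signal was 27321 in CF + lubiprostone and 19873 in CF control, against 23664 in WT + lubiprostone and 25706 in WT control (1418069_at). CF control was 1.29-fold lower than WT control, and CF + lubiprostone was the highest pool of the 4.

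*Apoa1* and *Apoa4* encode the apolipoproteins A-I and A-IV. The *Apoa1* probe set 1419232_a_at had 52738 in CF + lubiprostone and 46883.5 in CF control, against 54945 in WT + lubiprostone and 49625 in WT control, and it was the brightest of all 45101 probe sets in both WT pools. The other 3 probe sets of *Apoa1* lay between 39561 and 48063 in all pools. The mean ratio of CF control to WT control over the 4 probe sets was 0.981 (log2 ratio -0.03, SD between probe sets 0.06), and it turned to 0.15 on the log2 scale with the arrays scaled to the same median. All 4 probe sets lay above the 99.9th percentile of every array, and whether such bright probes were saturated was not tested.

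For *Apoa4*, probe set 1417761_at had 28884 in CF + lubiprostone and 23049 in CF control, against 30658 in WT + lubiprostone and 31465 in WT control. Probe set 1436504_x_at had 31159 and 26347.5 in these CF pools, against 32119 and 33323 in these WT pools. CF control was 1.31-fold lower than WT control, and CF + lubiprostone was within 1.05-fold of WT + lubiprostone. *Apoa1*, *Apoc3* and *Apoa4* lie next to each other in that order on chromosome 9, so neighbours in 1 gene cluster had ratios of CF control to WT control of 0.981, 0.140 and 0.761. The genes that flank this cluster, *Sik3* and *Zpr1*, had ratios of 1.09 and 0.972, and *Apoa5*, also in the cluster, did not pass the filter.

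*Apob*, the structural protein of the particle, was lower in both CF pools by each of its probe sets. Probe set 1455593_at had 7139 in CF + lubiprostone and 4235 in CF control, against 12243 in WT + lubiprostone and 11504 in WT control. Probe set 1457554_at had 2906 and 2116 in these CF pools, against 4895 and 5438 in these WT pools. The probe sets differed on the order of the WT pools, with WT + lubiprostone higher in the first and WT control higher in the second. *Apob* was 2.64-fold lower in CF control relative to WT control (log2 ratio -1.40, SD between 2 probe sets 0.06), and in CF + lubiprostone it was 1.70-fold lower relative to WT + lubiprostone (log2 ratio -0.77, SD 0.02). For comparison, the median SD between probe sets over 1999 bright genes was 0.13 in either comparison, where bright means at or above the 75th percentile. With lubiprostone in CF, *Apob* was 1.52-fold higher, and its probe sets differed in size (1.69-fold and 1.37-fold). Even so, CF + lubiprostone stayed 1.74-fold lower than WT control.

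*Mttp*, the transfer protein that loads *Apob*'s product with fat, did not share that difference. Probe set 1419399_at had 17763 in CF + lubiprostone and 15586 in CF control, against 18368 in WT + lubiprostone and 19081 in WT control. Probe set 1419400_at had 24864 and 21024 in these CF pools, against 23702 and 20791 in these WT pools. The probe sets disagreed on the direction between CF control and WT control (ratios 0.817 and 1.01), so the direction of *Mttp* is not settled. *Sar1b*, the coat GTPase, had 11486 in CF + lubiprostone and 9406 in CF control, against 13678 in WT + lubiprostone and 12968 in WT control (1428163_at), with both CF pools below both WT pools by modest amounts. It was 1.38-fold lower in CF control relative to WT control. Between the treated pools, it was 1.19-fold lower in CF.

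Among the enzymes of triglyceride synthesis, *Dgat2* had the widest range. Probe set 1422678_at had 8019 in CF + lubiprostone and 3686 in CF control, against 5805 in WT + lubiprostone and 5584 in WT control. Probe set 1422677_at had 3501 and 1818 in these CF pools, against 2748 and 2849 in these WT pools. In both, CF control was the lowest pool and CF + lubiprostone the highest. *Dgat2* was 1.54-fold lower in CF control relative to WT control (log2 ratio -0.62, SD between 2 probe sets 0.03), 2.05-fold higher in CF + lubiprostone relative to CF control (log2 ratio 1.03, SD 0.12), and 1.33-fold higher in CF + lubiprostone relative to WT + lubiprostone (log2 ratio 0.41). Between the WT pools its log2 ratio was 0.00.

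*Dgat1*, the other diacylglycerol acyltransferase, had 11314 in CF + lubiprostone and 9697 in CF control, against 14795 in WT + lubiprostone and 12452 in WT control in probe set 1418295_s_at. The dimmer 1445229_at had 1274 and 686 in these CF pools, against 1335 and 1065 in these WT pools. *Dgat1* was 1.41-fold lower in CF control relative to WT control by their mean. Its ratio of CF + lubiprostone to CF control was 1.17 in the first and 1.86 in the second, so the size of that difference rests on the probe set read. *Mogat2*, the enzyme of the first step and a neighbour of *Dgat2* on chromosome 7, was nearly level, with 8997 in CF + lubiprostone and 8285 in CF control, against 8921 in WT + lubiprostone and 9512 in WT control (1455099_at).

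**Figure D2:**
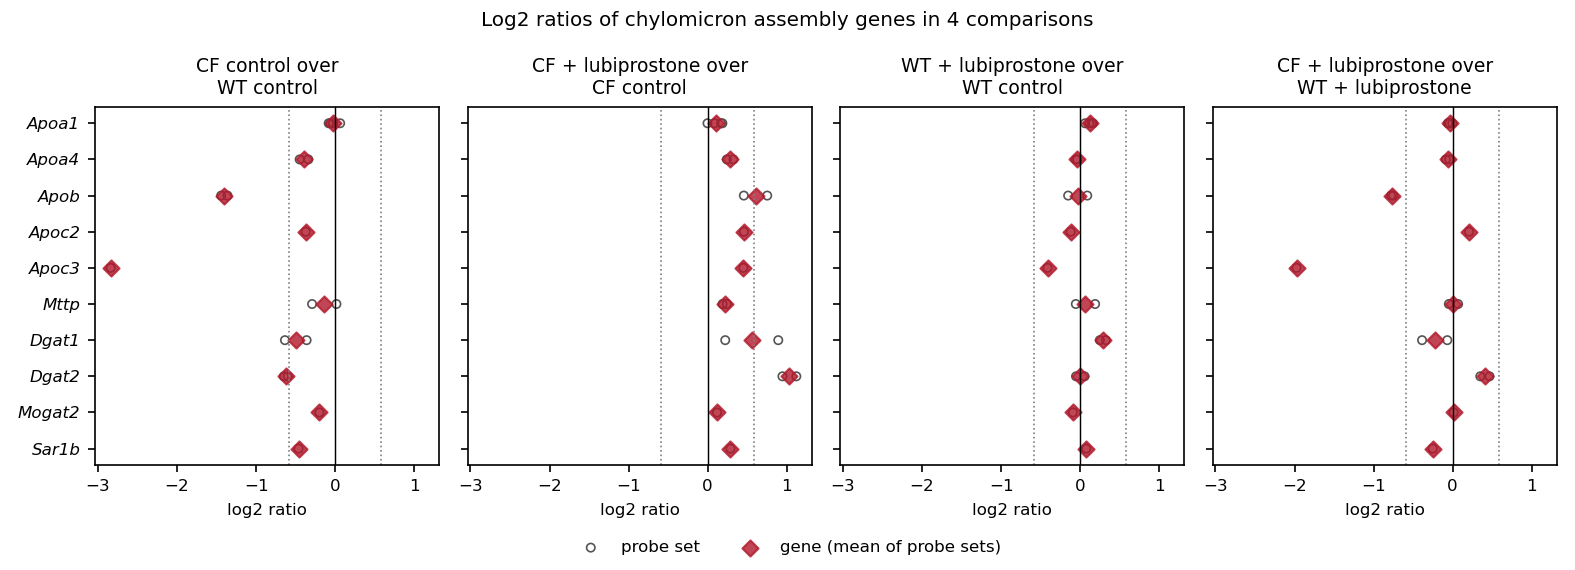
Log2 ratio of each member in 4 comparisons, with open circles for probe sets, diamonds for the mean over the probe sets of a gene and dotted lines at 1.5-fold. *Apoc3* (-2.84) and *Apob* (-1.40) stand lowest in CF control over WT control, *Dgat2* (1.03) stands highest in CF + lubiprostone over CF control, and no mean passes 1.5-fold in WT + lubiprostone over WT control.

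The first comparison asks how the CF intestine differs without treatment. By the mean of their probe sets, all 10 members were lower in CF control relative to WT control at any size, beside 51.8% of the 11806 genes counted. *Mttp* is in that count although its probe sets disagreed, and 9 were lower by the brightest probe set, *Mttp* excepted. With the arrays scaled to the same median 8 were lower, *Apoa1* and *Mttp* turning. That scaling moved the median log2 ratio of all genes from -0.02 to 0.16. Of the members, 3 (*Apoc3*, *Apob* and *Dgat2*) were at least 1.5-fold lower, beside 11.8% of all genes (*Apoc3* and *Apob* alone with the arrays scaled to the same median), and none was 1.5-fold higher, beside 7.95%. At the study's threshold of 3-fold, 1 member (*Apoc3*) was lower, beside 1.82%. The median log2 ratio of the members was -0.43, against -0.02 for all genes. Among 7411 genes with a probe set at or above the 75th percentile on at least 1 array, 8.06% were at least 1.5-fold lower.

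The next comparison asks what lubiprostone did in CF mice. The members were higher in CF + lubiprostone relative to CF control in 10 of 10 cases, beside 51.5% of 11795 genes higher and 48.5% lower, and with the arrays scaled to the same median *Apoa1* and *Mogat2* turned lower. Of the members, 2 (*Dgat2* and *Apob*) were at least 1.5-fold higher, beside 9.43% of all genes (*Dgat2* alone with that scaling), and none was 1.5-fold lower, beside 6.43%. The members' median log2 ratio was 0.37, against 0.01 for all genes, which the same scaling moved to -0.12. This comparison and the preceding one share the CF control array, where all 10 members were lowest, so their opposite directions are not independent of each other.

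In WT mice, 5 members were lower and 5 higher in WT + lubiprostone than in WT control, beside 50.5% of 11691 genes lower, and 9 were lower after quantile normalization. None reached 1.5-fold lower, beside 5.07% of all genes, nor 1.5-fold higher, beside 4.46%. The ratios ran from 1.33-fold lower (*Apoc3*) to 1.22-fold higher (*Dgat1*), with a median log2 ratio of -0.01. The log2 ratio with lubiprostone was larger in CF than in WT by 1.03 for *Dgat2*, 0.86 for *Apoc3*, 0.64 for *Apob* and 0.58 for *Apoc2*, and by -0.01 to 0.33 for the other members. With 1 array per group these differences were not tested.

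Between the treated pools, 6 members were lower and 4 higher in CF + lubiprostone relative to WT + lubiprostone, beside 49.7% of 11792 genes lower, and *Mttp* turned lower after quantile normalization. At least 1.5-fold lower were 2 members (*Apoc3* and *Apob*), beside 8.86% of all genes, and none was 1.5-fold higher, beside 8.22%. *Apoc3* alone passed 3-fold, beside 1.25%. The members' median log2 ratio was -0.05, against 0.00 for all genes. The other 8 members lay between 1.19-fold lower and 1.33-fold higher.

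**Figure D3:**
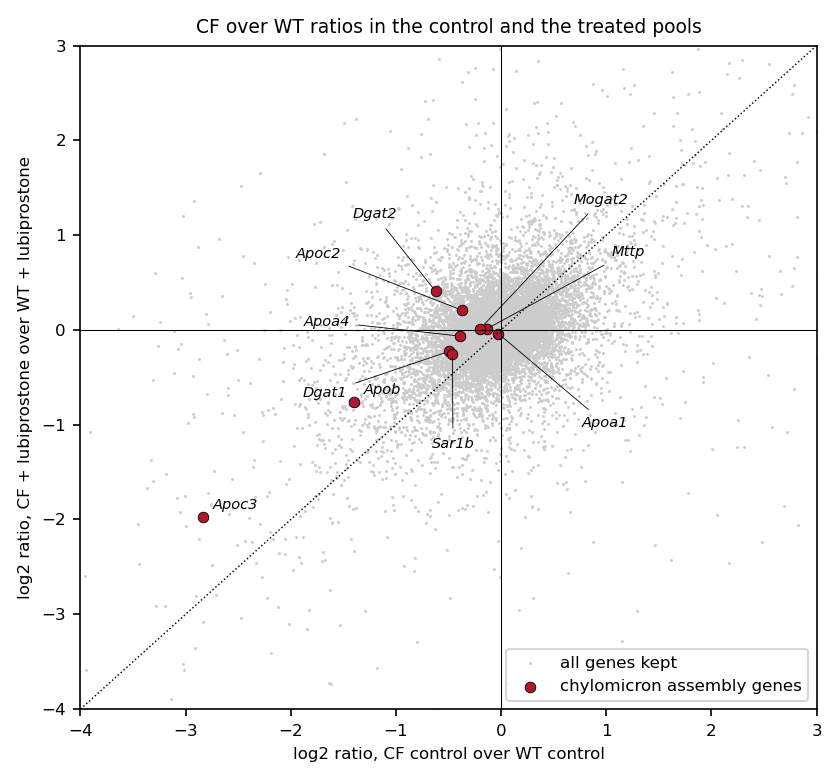
Log2 ratio of CF + lubiprostone over WT + lubiprostone (vertical axis) against CF control over WT control (horizontal axis) for all genes kept (grey) and for the members (red), 2 comparisons that share no array. *Apoc3* and *Apob* lie low on both axes and *Dgat2* lies left of and above 0, and 65 genes outside the axes from -4 to 3 are not drawn.

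Genes whose shape over the 4 pools came nearest to the 3 members of widest range were found by the root mean square difference of centred log2 signals. The search covered 6051 other genes whose brightest probe set was at or above the 75th percentile on every array. With 4 points this is a description of shape only. Nearest to *Apoc3* was *Maob*, a monoamine oxidase, with 988 in CF + lubiprostone and 675 in CF control, against 4130.27 in WT + lubiprostone and 5403 in WT control (difference 0.07), followed by *Aldh1a1*, a retinal dehydrogenase (0.12), and *Slc6a20a*, an imino acid transporter (0.15). Only 4 genes lay within 0.2 of *Apoc3*, while 40 lay within 0.2 of *Apob* and 86 within 0.2 of *Dgat2*. The nearest to *Apob* were *Prxl2a* (0.05), *Rdh9* (0.06) and *Ace* (0.07), and the nearest to *Dgat2* were *Igfbp3* (0.07), *Gpcpd1* (0.07) and *Noct* (0.09). *Apob* was the member nearest to *Apoc3*, at a difference of 0.68, and the cluster neighbours *Apoa4* and *Apoa1* stood at 1.12 and 1.19.

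Other genes of fat absorption were taken as lists by their step. Of all 53 measured genes on these lists, 39 were lower in CF control relative to WT control, beside 51.8% of all genes, with a median log2 ratio of -0.18, but with the arrays scaled to the same median 27 were lower and the median was -0.01. At least 1.5-fold lower were 10 of them (8 with that scaling), beside 11.8% of all genes. The members' own median was -0.43 (-0.25 with that scaling). Each list was also counted with that scaling and after quantile normalization. Of 3 measured genes on the list of other apolipoproteins, 2 were lower in CF control under each scaling. *Apoa2* was 2.12-fold lower, at dim signals of 97.1 in CF control and 205 in WT control, and *Apoe* was at a ratio of 0.788.

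In fatty acid uptake and activation, 5 of 7 genes were lower in CF control, beside 51.8% of all genes, and 3 with the arrays scaled to the same median. Those past 1.5-fold were the fatty acid translocase *Cd36* (3.76-fold lower), the transporter *Slc27a4* (2.30-fold lower) and the binding protein gene *Fabp2* (1.52-fold lower, but under 1.5-fold with median scaling), while *Fabp1*, the other abundant binding protein gene, was at a ratio of 0.928. In CF + lubiprostone *Cd36* was 2.50-fold higher than in CF control. All 5 measured genes of cholesterol transport were lower in CF control, and 4 passed 1.5-fold, beside 11.8% of all genes. The 4 were *Abca1*, which loads cholesterol onto apolipoprotein A-I (4.60-fold lower), the sterol exporters *Abcg8* (2.94-fold lower) and *Abcg5* (2.05-fold lower), and *Scarb1* (1.53-fold lower). All 5 were lower under either other scaling, with *Scarb1* short of 1.5-fold. All 5, including the uptake channel *Npc1l1*, were also at least 1.5-fold lower in CF + lubiprostone relative to WT + lubiprostone, beside 8.86% of all genes, with a median log2 ratio of -0.83. None of the 3 triglyceride enzymes among the members (*Dgat1*, *Dgat2*, *Mogat2*) was 1.5-fold lower there.

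The glycerol phosphate route, the other way to diacylglycerol, was split, with 5 of 9 genes lower and 4 higher in CF control. Its median log2 ratio was -0.06, which median scaling turned to 0.12, beside 0.16 for all genes with that scaling. Past 1.5-fold were *Agpat3* (1.76-fold lower) and *Lpin1* (1.62-fold higher). All 9 lipid droplet genes were lower in CF control, beside 51.8% of all genes. With median scaling 4 were lower and after quantile normalization 8, and none reached 1.5-fold. *Plin2*, which coats the droplets, was 1.58-fold higher in CF + lubiprostone relative to CF control, and under 1.5-fold with median scaling. Of 17 genes for leaving the endoplasmic reticulum with large cargo, 11 were lower in CF control, beside 51.8% of all genes. Their median log2 ratio was -0.16, turned to 0.02 by median scaling, beside 0.16 for all genes with that scaling. Only *Mia2*, a cargo receptor gene for such particles, was at least 1.5-fold lower (1.78-fold), beside 11.8% of all genes. Relative to WT + lubiprostone, *Tm6sf2* (1.55-fold) and *Mia2* (1.51-fold) were at least 1.5-fold lower in CF + lubiprostone, beside 8.86% of all genes. *P4hb*, which encodes the partner subunit of the microsomal transfer protein, was at a ratio of 0.940, near that of *Mttp* (0.909). Of the genes that edit *Apob* mRNA, the deaminase *Apobec1* was at 1.14, and its cofactors *Rbm47* and *A1cf* at 0.846 and 0.758. In CF + lubiprostone *A1cf* was 1.44-fold lower than in CF control and 1.99-fold lower than in WT + lubiprostone. Relative to WT + lubiprostone, *Apobec1* was at 1.29 and *Rbm47* at 0.904 there.

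Of 11 measured transcription factors known to act on these genes, 8 were lower in CF control (6 under either other scaling), beside 51.8% of all genes. At least 1.5-fold lower were 3, beside 11.8% of all genes: *Ppara*, the fatty acid receptor (3.11-fold lower), *Hnf4g* (1.92-fold lower) and *Srebf1* (1.65-fold lower, but under 1.5-fold with median scaling). *Hnf4a* was at a ratio of 1.25. In CF + lubiprostone *Nr1h4*, the bile acid receptor, was 1.81-fold higher and *Creb3l3*, an activator of apolipoprotein genes in the liver and gut, 1.64-fold higher than in CF control. Relative to WT + lubiprostone, *Ppara* was 2.23-fold lower, *Nr1h3* 1.92-fold lower and *Nr1h4* 2.17-fold higher in CF + lubiprostone.

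**Figure D4:**
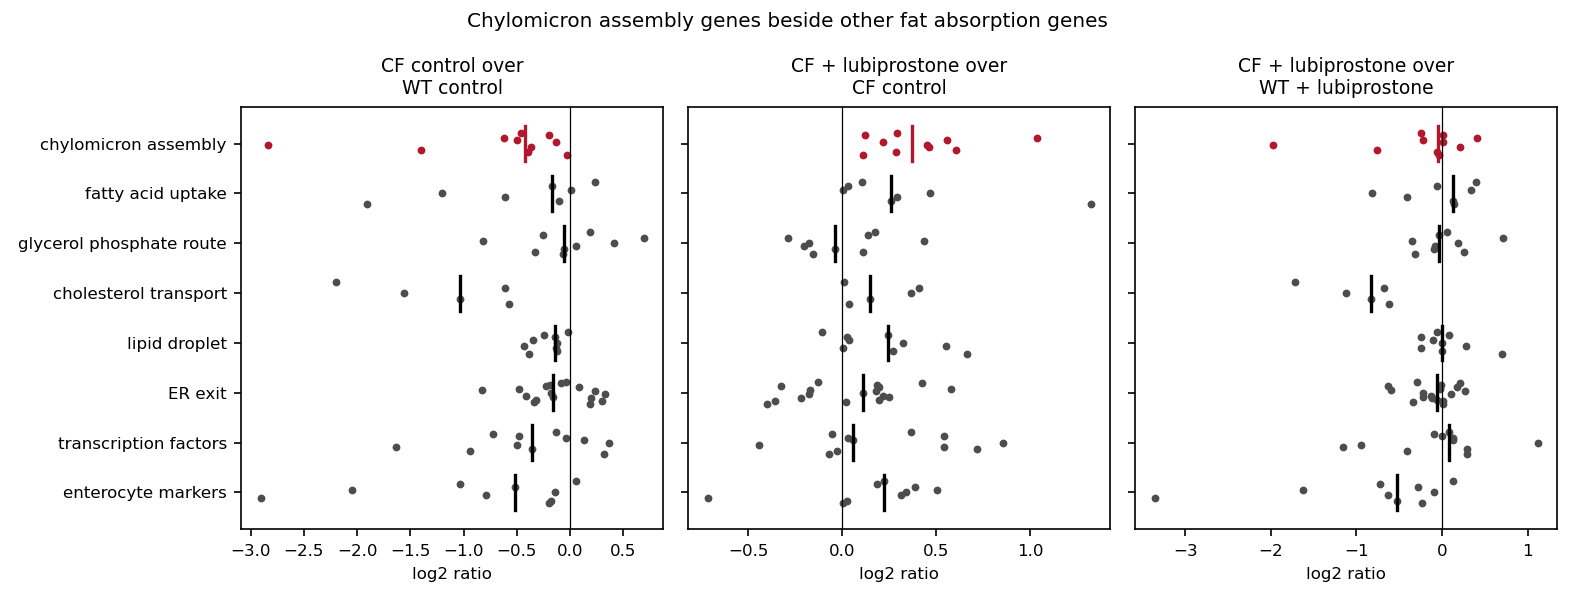
Log2 ratios of single genes (points) and their median (bars) for the chylomicron assembly genes (red) and for the lists of other fat absorption genes, transcription factors and enterocyte markers, in 3 comparisons with their own axes. In CF control over WT control the median is -0.43 for the members and -1.04 for cholesterol transport, and in CF + lubiprostone over CF control the members' median of 0.37 is the highest drawn.

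Markers of cell types and of gut regions are given beside these ratios. Of 9 measured enterocyte markers, 8 were lower in CF control relative to WT control (7 with median scaling, 9 after quantile normalization), beside 51.8% of all genes. Their median log2 ratio was -0.52, and 4 were at least 1.5-fold lower, beside 11.8% of all genes. In CF + lubiprostone relative to WT + lubiprostone 8 were again lower, beside 49.7% of all genes, with a median of -0.52, where the members' median was -0.05. Their summed signal was 155541 in CF + lubiprostone and 135307 in CF control, against 209270.0 in WT + lubiprostone and 190433 in WT control. Past 1.5-fold were *Lct*, the lactase gene (7.50-fold lower in CF control), *Treh* (4.13-fold lower), *Slc15a1* (2.05-fold lower) and *Anpep* (1.73-fold lower). *Vil1*, the gene of the brush border protein villin, was 1.15-fold lower, and *Krt20* was the 1 marker that was higher (ratio 1.04). In RNA of a whole organ, fewer enterocytes and less RNA of a gene per enterocyte cannot be told apart.

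Smooth muscle markers summed to 15715 in CF + lubiprostone and 24317 in CF control, against 16922 in WT + lubiprostone and 14831 in WT control, and so were highest in the pool where the members were lowest. All 6 of them were higher in CF control relative to WT control under each of the 3 scalings. Goblet cell markers were also highest in CF control. Their sums were 79256 in CF + lubiprostone and 92078 in CF control, against 77776 in WT + lubiprostone and 72751 in WT control. Of 5 goblet markers, 4 were higher in CF control relative to WT control, and 5 with median scaling. Regional markers did not move as 1 group. Genes listed as proximal summed to 12059 in CF + lubiprostone and 11881 in CF control, against 37530.5 in WT + lubiprostone and 38233 in WT control. These sums were carried by *Lct*, counted also as an enterocyte marker, and *Cubn*, which encodes the vitamin B12 receptor cubilin. The place of *Cubn* along the intestine was not tested, so the sums are not a measure of the proximal part. Of the 6 genes on this list 3, *Lct* and *Cubn* among them, were lower in CF control relative to WT control. The other 3 (*Gata4*, *Slc40a1*, *Cybrd1*) were higher, and the median log2 ratio of -0.03 was turned to 0.14 by median scaling, which moved that of all genes to 0.16. Distal markers summed to 14214 in CF + lubiprostone and 12428 in CF control, against 35691 in WT + lubiprostone and 32043 in WT control. Much of these sums was *Fabp6*, with 4150 and 5532 in these CF pools, against 22885 and 20674 in these WT pools. All 5 distal markers were lower in CF control relative to WT control (4 with median scaling), while in the treated pools 3 were lower in CF and 2 (*Slc10a2*, *Slc51b*) higher. Pancreatic acinar markers followed the treatment instead, at 3960 (3959.66) in CF + lubiprostone and 16777 in CF control, against 1339 in WT + lubiprostone and 16259 in WT control. The part of any of these markers in the members' ratios was not tested.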

How the data were processed

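Total RNA pools of the small intestine of 4 groups of mice were hybridized to 1 Affymetrix Mouse 430 2.0 array each. The deposited values are signal intensities on a linear scale for 45101 probe sets. According to the submitters' processing notes, the authors made them with GCOS and MAS5 (versions not given in the sources used here), which summarize the probes of a probe set and scale each array. The mean without the top and bottom 2% of values was 499.8 on each array. The precision is limited by the number of arrays, 1 per group, so no test was made and no p-value is given.

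Gene symbols came from the array annotation. Of the probe sets, 34958 had 1 symbol, 932 several and 9211 none, and 34754 were brought to the current symbol by gene identifier. Probe sets under the array median on all 4 arrays were left out, and 21756 remained. Log2 ratios were averaged over the probe sets of a gene. The study averaged probe sets too, as expression relative to WT control, and linear averaging is among the alternatives. Counts, at 1.5-fold and at the study's 3-fold, took only genes not below the median in both arrays of a comparison.

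The members and the gene lists were chosen with earlier results of these data known. All members are named, and of each list only some genes, chiefly bright ones and those past 1.5-fold. Genes flanking a member were named by position, from RefSeq's order of genes on GRCm38.p6. Cftr, Xist and Eif2s3y were read to check the pools. Motifs were searched in RefSeq promoters, of which the table used held 6 members. Alternatives were median scaling, quantile normalization, leaving out the filter or raising it to the 75th percentile, linear averaging of ratios, the brightest probe set of a gene, and raising dim signals to the array median. The steps were tested on simulated data. Python 3.11, numpy 2.4.6, pandas 2.3.3 and matplotlib 3.10.9 were used.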

Additional observations from a re-analysis of the deposited data

Results flagged for a closer look

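The ratio of *Apoc3* with lubiprostone was above 1 in CF (log2 ratio 0.45) and below 1 in WT (log2 ratio -0.41), a difference of 0.86 on the log2 scale. For *Apob* the log2 ratios were 0.61 in CF and -0.03 in WT, a difference of 0.64, and with the brightest probe set alone the WT value turned to 0.09. For *Dgat2* the ratio of CF to WT changed sides with treatment: its log2 ratio was 0.41 in the treated pools and -0.62 in the control pools, a difference between control and treated of -1.03. These 3 were picked out because their ratios had opposite signs and differed by at least 1.5-fold. With 1 array per group the differences were not tested, and the CF control array enters each of them.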

How the results depend on the processing

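Of 119 alternatives to the counts and medians, 114 stayed within the limits set for them, 5 moved and none turned the direction of a value past the threshold. Scaling the arrays to the same median gave the members a median log2 ratio of -0.25 in CF control over WT control. For CF + lubiprostone over CF control it gave 2 members lower at any size, none of them by 1.5-fold, and 1 member at least 1.5-fold higher. Quantile normalization gave a median of -0.57 in CF control over WT control, with 9 members lower in WT + lubiprostone over WT control. The cause was not tested. Over all 7 alternatives, the log2 ratio of CF control over WT control ran from -2.97 to -2.66 for *Apoc3*, from -1.48 to -1.22 for *Apob* and from -0.67 to -0.44 for *Dgat2*, and 2 to 4 members were at least 1.5-fold lower. In CF + lubiprostone over WT + lubiprostone it ran from -1.97 to -1.94 for *Apoc3* and from -0.78 to -0.73 for *Apob*. In CF + lubiprostone over CF control it ran from 0.90 to 1.12 for *Dgat2*. Of 350 alternatives for single members, 323 stayed and 27 moved. *Apoa1*, *Mttp*, *Mogat2*, *Dgat1*, *Dgat2*, *Sar1b* and *Apob* each had a small ratio or difference that changed sign in some setting.

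No paired analysis was possible because each group is 1 array, and leaving out a replicate was not possible either. The member signals were bright, at or above the 80.5th percentile of their array. The single pool per group leaves the spread between pools unknown, and the scaling of the arrays changes the counts given above.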
